A study of Rattus norvegicus with 24 samples.

Results

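The F-box genes outside the classic atrogenes were examined in the tibialis anterior of aged rats through disuse, recovery and a second disuse. Members were all genes of the table with an Fbxo, Fbxl or Fbxw symbol followed by a number, leaving out Fbxo32 (atrogin-1/MAFbx), Fbxo30 (MUSA1) and Fbxo21 (SMART), the F-box ligases best known from muscle wasting. The rule left 50 of 13458 genes, comprising 28 Fbxo, 15 Fbxl and 7 Fbxw genes, and the rule read symbols only, though it was set with earlier results of these data known. The symbols Fbxw7 and Fbxl2 were not analysed here.

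The rats were male Fischer 344 animals aged 23 ± 1 months. Tetrodotoxin (TTX), a sodium channel blocker, was delivered by osmotic pump to the left common peroneal nerve, which silences the muscles that lift the foot. Muscle was taken after 6 to 7 days of TTX (atrophy, n = 3 left limbs), after a further 9 days without TTX (recovery, n = 3) or after a second TTX period of 5 to 6 days that followed those stages (repeated atrophy, n = 3), and the 9 untreated right limbs of the same animals were the control. Sham animals had surgery without TTX, with 1 animal at each stage and both limbs sequenced (n = 3 left and 3 right limbs). Each right limb belonged to an animal whose left limb had been silenced, so control here means contralateral and not untouched. No young animals were in these groups, and different animals stood at each stage.

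F-box proteins are the substrate-recognising subunits of SCF ubiquitin ligases. SKP1 links the F-box to the scaffold CUL1, RBX1 brings in the E2 enzyme, and NEDD8 on the cullin switches the complex on, while the COP9 signalosome removes NEDD8 and CAND1 exchanges one F-box protein for another. Fbxw proteins carry WD40 repeats and Fbxl proteins carry leucine-rich repeats, whereas Fbxo proteins carry other or no recognised substrate domains. In skeletal muscle the family is known mostly through the atrogenes set aside here, which are induced through FoxO and other factors when muscle is unloaded or denervated.

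Sequences upstream of 3 members are given because these genes carried the main patterns in the values as deposited. There Fbxo31 had the largest rise after repeated atrophy, Fbxl4 the only fall at that stage, and Fbxl22 the only rise after recovery. Rescaling, described below, added further falls and a rise. Each is the 250 bases before the annotated start in the RefSeq promoter table (build GRCr8), written 5′ to 3′ on the gene's own strand. Capitals would mark any of the letters GTAAACA (FoxO), CAGCTG (myogenic E-box), CACGTG (clock E-box), GCATGCGC (NRF1 core) or CCAAT, searched on both strands, and none lay in these stretches.
Fbxo31, chr19:66564675-66564924, minus strand: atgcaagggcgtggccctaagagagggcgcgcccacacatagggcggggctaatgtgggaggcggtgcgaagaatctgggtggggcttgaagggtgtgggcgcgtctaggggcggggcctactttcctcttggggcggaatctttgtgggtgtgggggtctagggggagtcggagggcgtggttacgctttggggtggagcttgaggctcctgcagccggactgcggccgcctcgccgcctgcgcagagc
Fbxl4, chr5:40752271-40752520, plus strand: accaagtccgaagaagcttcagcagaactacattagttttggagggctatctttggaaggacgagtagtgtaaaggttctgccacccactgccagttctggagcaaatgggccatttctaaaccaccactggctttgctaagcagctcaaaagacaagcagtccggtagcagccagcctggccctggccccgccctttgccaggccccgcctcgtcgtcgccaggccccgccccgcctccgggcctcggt
Fbxl22, chr8:75971715-75971964, minus strand: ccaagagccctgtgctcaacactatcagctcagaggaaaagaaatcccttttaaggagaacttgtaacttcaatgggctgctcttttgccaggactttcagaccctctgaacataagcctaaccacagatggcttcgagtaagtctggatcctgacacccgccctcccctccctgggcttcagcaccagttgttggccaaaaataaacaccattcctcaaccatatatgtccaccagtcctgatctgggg
Past the start of Fbxl22, a clock E-box in capitals began at base 38 of the transcript side (chr8:75971665-75971687, minus strand).
Fbxl22 E-box: gctgggcactCACGTGaggccac

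The promoter table held 42 of the 50 members, in windows of 250 bases before and 50 after the start. GTAAACA was in 0 of these 42 windows and in 3.78% of 33469 rat promoters, which says only that these letters were not in the windows. CACGTG was in 3 of 42 (Fbxl22, Fbxo39 and Fbxl5; 7.14%, against 6.42% of all promoters) and CAGCTG in 6 of 42 (14.3%, against 15.1%). GCATGCGC was in 4 of 42 (9.52%, against 2.47%) and CCAAT in 11 of 42 (26.2%, against 37.5%). The windows of the members had a median GC content of 59.2%, against 51.7% over all promoters.

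Values were counts scaled so that each limb totals 1000000 (CPM). A step of 0.0324 to 0.0530 CPM was taken as 1 count, which puts the total at 18862000 to 30894000 counts a limb. Whether a count was a read or a read pair is not given. The 10 most abundant genes took 13.0, 25.6 and 15.6% of the CPM in the limbs of atrophy animals 1, 2 and 3 and 15.6 to 19.2% in repeated atrophy, against 24.3 to 32.7% in control, so atrophy animal 2 alone of these lay within the control range. With every limb summing to the same total, the median log2 difference over all 14031 rows was 0.22 in atrophy and 0.20 in repeated atrophy, and a trimmed mean rescaling brought it to -0.0014 and -0.0094, so the counts of members and the calls on which the text turns are also given rescaled. A call, here and throughout, needed a fold change of 1.2 or more and a limma adjusted p no higher than 0.05. All 10 skeletal muscle markers were measured, and none was at 0 in every limb of a group. Their sum was 204407 to 272289 CPM in control, 98619 to 216148 CPM in atrophy and 129856 to 164250 CPM in repeated atrophy. Of these markers 0 of 10 passed in atrophy, while Mb was higher and Atp2a1 lower in repeated atrophy, where after rescaling 0 were higher and 1 was lower. Of the 4 proliferation markers, Mki67 was higher in atrophy and Ccnb1 in repeated atrophy, with sums of 3.51 to 23.5 CPM and 3.51 to 4.26 CPM against 0.460 to 4.79 CPM in control, and after rescaling 0 passed. The part of these shifts in the results on members was not tested. In bulk tissue, fewer cells of a type and less RNA per cell cannot be told apart.

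All 50 members were above 0 in at least 3 of the 18 limbs of TTX animals. In the control limbs, 21 members averaged at least 10 CPM, 14 lay between 1 and 10 CPM, and 15 averaged below 1 CPM. Per kilobase of transcript, the highest control level was that of Fbxo31, which marks cyclin D1 for destruction after DNA damage, at 109 ± 77.6 CPM per kb (SD, n = 9). Fbxo6, which binds N-glycans on misfolded glycoproteins, followed at 79.8 ± 20.8, and then Fbxw5 at 50.4 ± 9.48, Fbxw2 at 41.6 ± 7.63 and Fbxo22 at 33.4 ± 6.00 CPM per kb. The lowest was Fbxo24 at 0.00433 ± 0.0130 CPM per kb, and the ranges of neighbours in this order overlapped except between Fbxo33 (lowest limb 1.28 CPM per kb) and Fbxo46 (highest limb 1.14 CPM per kb).

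**Figure D1:**
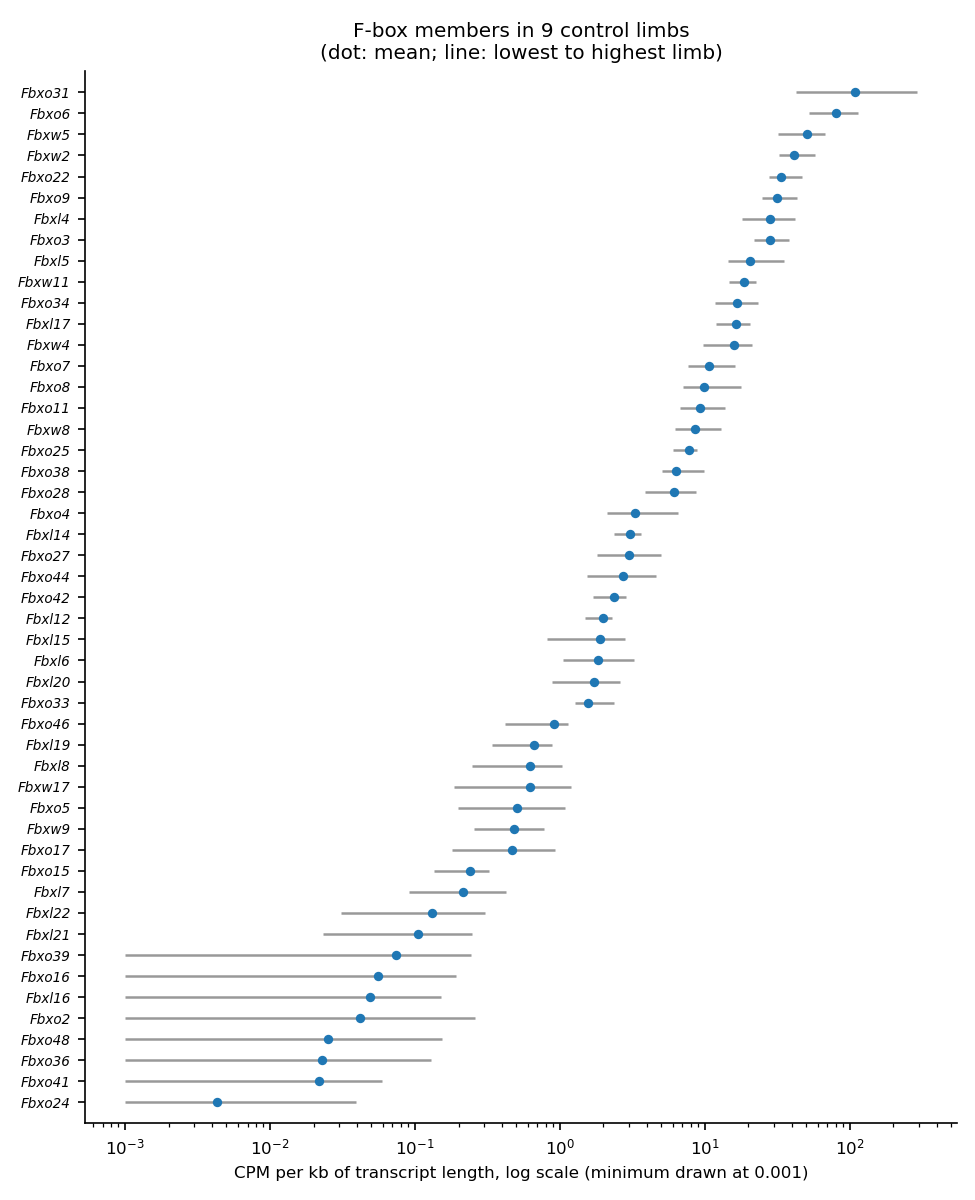
CPM per kb of transcript length (log axis) for 49 members in the 9 control limbs, with the mean as a dot and the lowest to highest limb as a line. Fbxo31 stands at the top at 109 CPM per kb and also spans a wide range of limbs.

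After the first silencing, 9 of 50 members (18%) rose and 0 fell. The background over all 14031 rows was 20.3% higher and 2.33% lower, so the members' share was close to that of the other genes. Their median log2 difference was 0.33, against 0.22 over all rows. The 0 falls stand beside 0 members lower at an unadjusted p under 0.05 in limma, where 15 were higher, and 32.5% of rows were higher and 4.6% lower at that level. After rescaling, 2 members were higher (Fbxo33 and Fbxo15) and 1, Fbxw5, was lower, beside a background of 4.48% higher and 5.21% lower. With the animal as a block, which compares each left limb with its own right limb, 0 members and 0% of rows passed, while 8 members and 19.1% of rows had an unadjusted p under 0.05.

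The atrophy calls depended on single animals, among the members as over all rows. Without the limbs of atrophy animal 1, 0 members passed, without animal 3 there were 4, and without animal 2, whose left limb was the lowest of the 3 for Fbxo4, Fbxo33, Fbxo34 and Fbxo38, there were 16. Over all rows the shares called were 0.00715% without animal 1, 13.1% without animal 3 and 34.6% without animal 2, against 22.6% with all animals. Leaving out recovery animal 1 or recovery animal 3, which removes a control limb each, gave 5 calls, beside 14.8% and 16.9% of rows.

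Among the atrophy rises, Fbxo4 changed most. Fbxo4, which has been tied to turnover of cyclin D1 and of the telomere protein TRF1, was at 16.4, 10.6 and 18.3 CPM in the 3 atrophy limbs and between 4.20 and 12.9 CPM in control (median 4.94). Only the right limb of atrophy animal 3, at 12.9 CPM, reached into the atrophy range. Fbxo4 differed by 1.14 ± 0.28 on the log2 scale (SE, adjusted p = 0.012), 0.80 after rescaling (adjusted p = 0.051) and 0.88 with the block (adjusted p = 0.19). Fbxo33, known to target the Y-box protein YB-1, was at 14.5, 7.65 and 10.7 CPM against 4.25 to 7.85 CPM in control (median 4.74), with atrophy animal 2 the only limb inside the control range. Its log2 difference was 0.93 ± 0.21 (adjusted p = 0.0091), with 0.60 after rescaling (adjusted p = 0.033) and an adjusted p of 0.23 with the block.

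Fbxo34 was at 70.8, 63.9 and 108 CPM against 34.3 to 67.7 CPM in control (median 48.5), with 1 atrophy limb inside the control range. Fbxo34 rose by 0.71 ± 0.20 (adjusted p = 0.018), a call lost after rescaling (adjusted p = 0.19) and with the block (adjusted p = 0.18). Fbxo38, a gene in which human mutations cause a distal motor neuronopathy, was at 56.0, 30.5 and 51.4 CPM against 22 to 43.4 CPM in control, with atrophy animal 2 again inside the range. It rose by 0.69 ± 0.20 (adjusted p = 0.023), a call lost after rescaling (adjusted p = 0.17) and with the block (adjusted p = 0.23). The other named rises were Fbxl8, which targets cyclin D3, Fbxl14, which targets the transcription factor SNAIL, and Fbxw2. Their log2 differences were 0.70 ± 0.23 for Fbxl8, 0.63 ± 0.20 for Fbxl14 and 0.43 ± 0.14 for Fbxw2, and each lost its call after rescaling, with the block and without atrophy animal 1. Left minus right within atrophy animals averaged 0.69, 0.57 and 0.19 in that order. Without atrophy animal 1 the differences from control were 0.54, 0.42 and 0.40. The rise of Fbxl8 was smaller than the difference of 0.90 between the sham left limbs and control, and the left limb exceeded the right by a mean of 0.69 in atrophy animals and 0.84 in sham animals. Fbxo15 also rose but averaged under 2 CPM in each of those groups, and it is mentioned after its value was seen.

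After repeated atrophy, 12 of 50 members (24%) rose and 1 (2%) fell. The background was 28.1% higher and 6.24% lower. With the animal as a block, 11 members rose and 1 fell, beside 21.5% and 5.66% of all rows, and 11 of the 13 calls were kept. Fbxo33 (log2 difference 0.89, adjusted p = 0.053) was among those lost, and Fbxo28 was added. After rescaling the split was 5 higher and 5 lower, beside 13% and 12.1% of all rows. The rises that held after rescaling were Fbxl8, Fbxo33, Fbxo34, Fbxo38 and Fbxo7, and the falls were Fbxl4, Fbxl17, Fbxo9, Fbxw4 and Fbxw5. Fbxl17 was at 8.88, 34.7 and 37.4 CPM, against 25.6 to 43.8 CPM in control. In deposited CPM, the left limb was below the right in 3 of 3 repeated atrophy animals for Fbxl4 and in 2 of 3 for each of the other 4 falls. Without repeated atrophy animal 2, 7 members and 18.4% of rows were called, against 34.3% of rows with all animals.

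Fbxo31 had the largest rise. Its 3 repeated atrophy limbs held 426, 359 and 492.7 CPM, while control ran from 74.1 to 509 CPM with a median of 148. All but 1 control limb, the right limb of atrophy animal 3 at 509 CPM, lay below the silenced limbs. Fbxo31 rose by 1.41 ± 0.42 on the log2 scale (adjusted p = 0.014, or 1.16 and 0.021 with the block), but it missed the threshold after rescaling (1.02, adjusted p = 0.051) and without repeated atrophy animal 1 (1.35, adjusted p = 0.057). Within the animals, the left limb exceeded the right in 3 of 3 by 1.81, 0.83 and 0.85 on the log2 scale. In atrophy the difference from control was 0.90 ± 0.42 (adjusted p = 0.13).

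Of the members' summed CPM, Fbxo31 made up 20.8 to 26.7% after repeated atrophy, 16.2 to 23.4% after atrophy and 4.96 to 9.48% after recovery. The control range of 7.34 to 28.3% held both silenced groups and overlapped recovery. The rn7 row of Fbxo31 spans chr19:49627683-49656011 on the minus strand. The right limbs of the recovery animals were the 3 lowest of the 9 controls at 98.9, 101 and 74.1 CPM, and right limbs of the atrophy animals stood at 148, 171 and 509 CPM. For Fbxo32, one of the genes set aside, the same right limbs held 6.17, 5.49 and 2.29 CPM in the recovery animals and 9.88, 26.5 and 92.4 CPM in the atrophy animals. In the repeated atrophy animals the right limbs held 121 to 274 CPM of Fbxo31 and 14.9 to 25.7 CPM of Fbxo32, which overlaps the atrophy animals. Only the right limbs of the recovery animals stood apart in both genes. The part of the stage in the differences was not tested beyond the block.

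**Figure D2:**
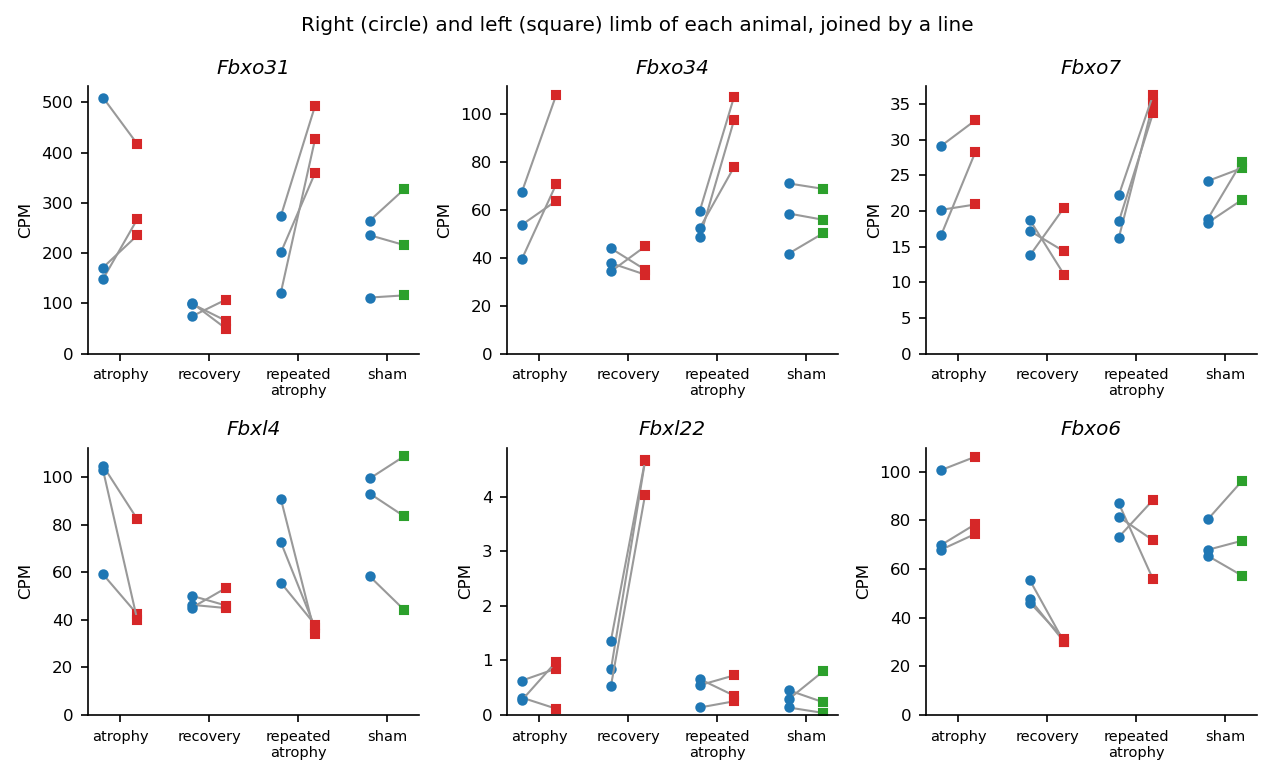
CPM in the right limb (circle) and left limb (square) of each animal at each stage, joined by a line, for Fbxo31, Fbxo34, Fbxo7, Fbxl4, Fbxl22 and Fbxo6; red squares are limbs of TTX animals and green squares sham limbs. Fbxl22 is higher in the left limb of all 3 recovery animals, and Fbxl4 is lower in the left limb of all 3 atrophy and all 3 repeated atrophy animals.

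Fbxo7 and Fbxl4, which both act in mitochondrial turnover, changed in opposite directions after repeated atrophy. Fbxo7, which is mutated in an early form of parkinsonism and acts in mitophagy, was at 35.1, 33.7 and 36.3 CPM after repeated atrophy against 13.8 to 29.1 CPM in control (median 18.5), with no overlap. Fbxo7 rose by 0.86 ± 0.20 (adjusted p = 0.0031), and the call held with the block (0.86, adjusted p = 0.025) and after rescaling (0.49, adjusted p = 0.023), but not with both together (0.48, adjusted p = 0.11). Fbxl4, a mitochondrial F-box protein that restrains mitophagy by removing BNIP3 and BNIP3L, was the only fall with the deposited CPM. It was at 34.1, 36.7 and 38.0 CPM against 45.1 to 105 CPM in control (median 59.1), again with no overlap. The log2 difference was -0.85 ± 0.26 (adjusted p = 0.017), -1.23 after rescaling (adjusted p = 0.0023) and -0.96 with the block (adjusted p = 0.011). Without repeated atrophy animal 1 or animal 2 the adjusted p was 0.077 and 0.083. In atrophy Fbxl4 differed from control by -0.34 and was not called. Its left limb was nevertheless lower than the right in 3 of 3 atrophy animals, with a mean of -0.72. Bnip3l, a substrate of FBXL4, rose from 73.4 ± 18.5 CPM in control (n = 9) to 142 ± 24.2 CPM after repeated atrophy (n = 3), a log2 difference of 0.96 ± 0.20 (adjusted p = 0.0017, rescaled 0.58 with adjusted p = 0.017, block adjusted p = 0.018). Bnip3, the other substrate, did not pass, at 434 ± 236 CPM in control and 532 ± 143 CPM after repeated atrophy (0.41 ± 0.33, adjusted p = 0.38). These values, like those of Irs1 and Ireb2 below, are of transcripts, while the ligases remove proteins. Protein turnover was not tested.

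Of the other rises after repeated atrophy, Fbxo34 was at 97.6, 78.0 and 107 CPM and Fbxo38 at 44.5, 54.3 and 55.7 CPM, all above every control limb. The log2 differences were 0.96 ± 0.20 for Fbxo34 (adjusted p = 0.0014) and 0.89 ± 0.20 for Fbxo38 (adjusted p = 0.0028), and both held with the block and after rescaling. With the block and rescaling together Fbxo38 passed (adjusted p = 0.040), as did Fbxl4 (adjusted p = 0.0047) and, as a fall, Fbxo9, while Fbxo34 (adjusted p = 0.076) and Fbxl8 (adjusted p = 0.10) did not. Fbxl8 was at 3.52, 2.41 and 4.01 CPM against 0.449 to 1.87 CPM, with no overlap, and rose by 1.02 ± 0.24 (adjusted p = 0.0030). The sham left limbs, which had surgery without TTX, were also above every control limb for Fbxl8, at 4.27, 1.90 and 2.93 CPM. Their log2 difference from control was 0.90 ± 0.22 (unadjusted p = 0.00097 and adjusted p = 0.19 in limma). Within animals the left limb exceeded the right by a mean of 0.84 in 3 of 3 sham animals and 0.90 in 3 of 3 repeated atrophy animals. Fbxw8, the F-box partner of CUL7 that can direct IRS1 to the proteasome, was at 64.1, 59.6 and 99.7 CPM against 31.5 to 65.6 CPM, so the groups overlapped. Its log2 difference was 0.77 ± 0.23 (adjusted p = 0.015, block adjusted p = 0.034, rescaled adjusted p = 0.15). Irs1 fell from 5.02 ± 0.718 to 1.72 ± 0.424 CPM (log2 difference -1.15 ± 0.18, adjusted p = 2.4e-04, rescaled -1.42, block adjusted p = 0.014). Irs1 also fell after the first atrophy (-0.52 ± 0.18, adjusted p = 0.047, rescaled -0.81, block adjusted p = 0.24), where Fbxw8 did not pass (0.40 ± 0.23, adjusted p = 0.22).

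Further rises after repeated atrophy were those of Fbxo4, Fbxo33, Fbxw9, Fbxw17 and Fbxw2. Their log2 differences were 0.98 ± 0.28 for Fbxo4, 0.85 ± 0.21 for Fbxo33, 0.71 ± 0.21 for Fbxw9, 0.68 ± 0.20 for Fbxw17 and 0.53 ± 0.14 for Fbxw2. Of these 5, Fbxo33 alone stayed called after rescaling, and it alone missed the threshold with the block. Each of the 5 lost its call without repeated atrophy animal 2, Fbxw9 also without animal 3 and Fbxw17 also without animal 1. Without animal 2 the log2 differences were 0.95 for Fbxo4, 0.62 for Fbxo33, 0.65 for Fbxw9, 0.66 for Fbxw17 and 0.52 for Fbxw2. Fbxw8 lost its call without repeated atrophy animal 3.

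After recovery, 1 member rose and 2 fell, or 2% and 4% of 50, against a background of 4.4% higher and 3.33% lower. Fbxl22, a muscle-enriched F-box protein of the sarcomere Z-disc that acts on alpha-actinin and filamin C, was at 4.66, 4.67 and 4.04 CPM. Control limbs held 0.138 to 1.36 CPM (median 0.546), well below every recovery limb. The rise was 1.81 ± 0.20 on the log2 scale (adjusted p = 2.1e-04) and 1.53 with the block (adjusted p = 0.017), and it was kept in each of the 9 fits that left out 1 animal. After atrophy and repeated atrophy it was at 0.115 to 0.976 CPM and 0.251 to 0.725 CPM, below the highest control limb.

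Fbxo6 was at 30, 30.1 and 31.3 CPM after recovery against 46.2 to 101 CPM in control, with no overlap. Fbxw4, the limb patterning gene also called dactylin, was at 12.3, 12.6 and 14.1 CPM against 18.8 to 41.0 CPM, also with no overlap. The log2 difference was -1.13 for each, with SEs of 0.21 and 0.21 and adjusted p = 0.0051 and 0.0055. Neither held when left and right limbs of an animal were compared (-0.68, adjusted p = 0.13 for Fbxo6 and -0.73, adjusted p = 0.16 for Fbxw4). The right limbs of the recovery animals held 46.2 to 55.4 CPM of Fbxo6, the lowest 3 of the 9 controls. In all 3 recovery animals the left limb was lower than the right for both genes. With the block, 1 member, Fbxl22, and 0.0641% of rows passed. After rescaling 2 members were higher (Fbxl22 and Fbxo15) and 3 lower (Fbxo6, Fbxw4 and Fbxo31), beside 6.21% and 5.9% of rows.

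Markers of other cells moved in the recovery limbs. The 5 fibroblast markers summed to 1022 to 1918 CPM, against 194 to 528 CPM in control, and 4 of 5 were called higher. The 8 macrophage and leukocyte markers summed to 193 to 444 CPM against 61.3 to 225 CPM, with 2 of 8 called higher (5 of 8 after rescaling), and the 4 proliferation markers to 6.17 to 12.9 CPM against 0.460 to 4.79 CPM, with 3 of 4 higher. No marker of these lists was at 0 in every limb of a group. Their part in the changes of Fbxl22, Fbxo6 and Fbxw4 was not tested. Of the 4 endothelial, 5 Schwann cell and 4 adipocyte markers, 0 passed between recovery and control. In repeated atrophy against control 0 endothelial markers passed with the deposited CPM, and 2 of 4 were lower after rescaling. The part of that shift in the rescaled falls of members was not tested. The skeletal muscle markers summed to 219142 to 234743 CPM in recovery and 204407 to 272289 CPM in control, and 0 of 10 passed in either direction.

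**Figure D3:**
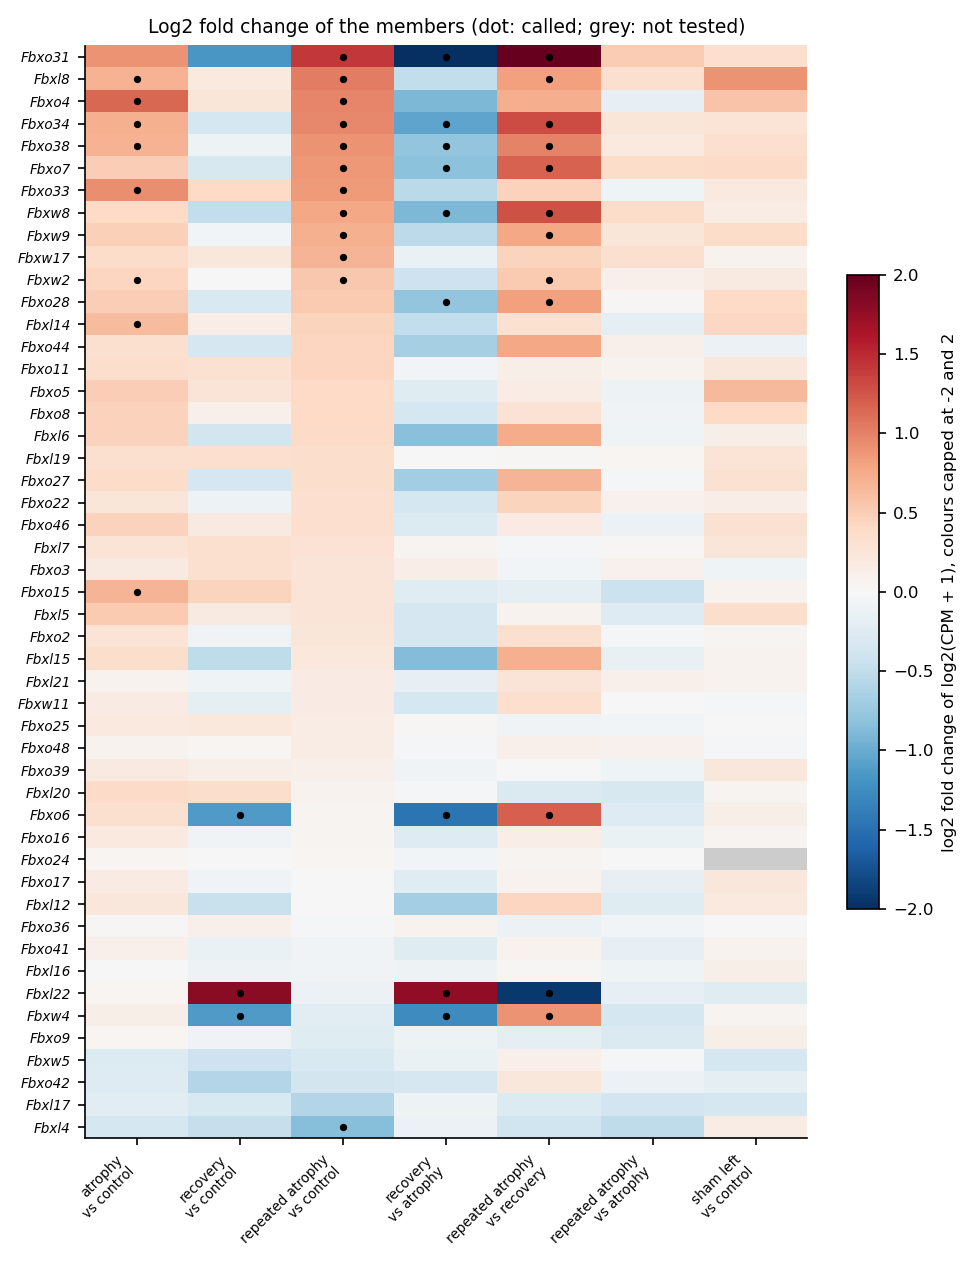
Log2 fold change of 49 members in 7 comparisons, ordered by the value after repeated atrophy, with colours capped at -2 and 2, a dot where a member was called, and grey where it was not tested. Fbxo31, Fbxl8 and Fbxo4 head the column of repeated atrophy against control, Fbxl4 ends it, and Fbxl22 stands out in the recovery columns.

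Between stages, 1 member was higher and 8 lower in recovery than in atrophy, against backgrounds of 3.34% and 14.5%. Fbxl22 was higher by 1.77 ± 0.24, and Fbxo31 was lower by 2.07 ± 0.51 on the log2 scale (adjusted p = 0.014). With the block the difference for Fbxo31 was -0.70 ± 0.44 (adjusted p = 0.70). From recovery to repeated atrophy, 11 members rose and 1 fell, against backgrounds of 21% and 6.29%. Fbxo31 was higher by 2.57 ± 0.51 (adjusted p = 0.0026, rescaled 2.21 with adjusted p = 0.0036, block 1.52 with adjusted p = 0.13), Fbxo34 by 1.30 ± 0.24, Fbxw8 by 1.27 ± 0.28, Fbxo7 by 1.19 ± 0.24 and Fbxo6 by 1.19 ± 0.26, and Fbxl22 was lower by 1.93 ± 0.24. All of these passed. The block moved the differences between repeated atrophy and recovery to 0.84 for Fbxo34, 0.87 for Fbxw8, 1.00 for Fbxo7, 0.51 for Fbxo6 and -1.53 for Fbxl22. With the block, where each left limb is set against its own right limb first, 0 members passed in either comparison, beside 0.0143% and 0.0855% of rows, while 5 and 8 members, and 7.96% and 19.7% of rows, had an unadjusted p under 0.05 in limma. After rescaling, 1 member was higher and 4 lower in recovery than in atrophy, beside 5.82% and 4.8% of rows, and 6 were higher and 2 lower in repeated atrophy than in recovery, beside 10.3% and 11.3%.

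The calls between recovery and atrophy numbered 5 without atrophy animal 1, 15 without atrophy animal 2, 5 without atrophy animal 3, and 3 without recovery animal 1 or 2. The shares of all rows at these settings were 7.31%, 26.5%, 8.9%, 3.18% and 2.84%, against 17.9% with all animals. Fbxo31 was among the calls lost in both of the latter (adjusted p = 0.059 without recovery animal 1 and 0.075 without recovery animal 2). Between repeated atrophy and recovery, 6 members and 13.2% of rows were called without recovery animal 2, against 27.2% of rows with all animals. Repeated atrophy against atrophy gave 0 called members, beside 0.0356% of rows, with 1 member and 6.3% of rows at an unadjusted p under 0.05. Here Fbxo31 differed by 0.51 ± 0.51, Fbxo7 by 0.37 ± 0.24 and Fbxl4 by -0.51 ± 0.32, and a missed threshold does not show that the silencings acted alike. Sham left limbs against control gave 0 calls among 49 members tested and 0% of 13822 rows, while 3 members and 13.8% of rows had an unadjusted p under 0.05 (limma). The sham left limbs ranged from 116 to 326 CPM for Fbxo31 and from 0.0388 to 0.797 CPM for Fbxl22.

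**Figure D4:**
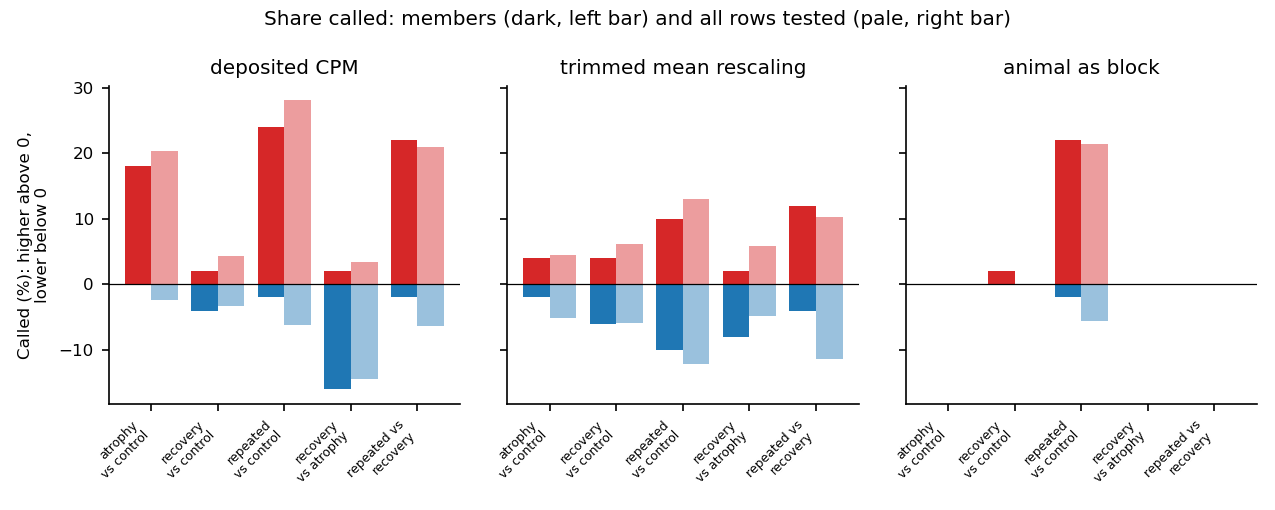
Percent of members (dark, left bar) and of all rows tested (pale, right bar) called higher (above 0) or lower (below 0) in 5 comparisons, with the deposited CPM, after a trimmed mean rescaling and with the animal as a block. After repeated atrophy 24% of members and 28.1% of rows were higher with the deposited CPM, and with the block only that comparison keeps more than 1 member.

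The other 10 measured members with a known role did not pass against control at any stage with the deposited CPM, and Fbxo9 alone of them passed after rescaling, as a fall after repeated atrophy. Fbxl5, the iron sensor that removes IRP2, was at 70.3 to 88.3 CPM after atrophy against 38.2 to 93.8 CPM (log2 difference 0.52 ± 0.22, adjusted p = 0.093), and 0.26 ± 0.22 higher after repeated atrophy (adjusted p = 0.41). Ireb2, the gene for IRP2, rose after atrophy by 0.86 ± 0.25 (adjusted p = 0.021), a call lost after rescaling (adjusted p = 0.12) and with the block (adjusted p = 0.32), and after repeated atrophy by 0.95 ± 0.25 (adjusted p = 0.0068, rescaled adjusted p = 0.044, block adjusted p = 0.016). Fbxl21 averaged 0.205 ± 0.147 CPM in control, near the level of a few reads. Fbxw11 (beta-TrCP2), a ligase for beta-catenin and I-kappa-B, averaged 70.4 ± 9.19 CPM in control, 78.8 ± 5.96 in atrophy, 61.7 ± 4.44 in recovery and 78.6 ± 9.35 in repeated atrophy. Fbxo11, which targets BCL6, averaged 34.4 ± 8.41 CPM in control and 46.3 ± 11.2 CPM in repeated atrophy (log2 difference 0.42 ± 0.20, adjusted p = 0.11), and Fbxo5 (EMI1), an inhibitor of the anaphase-promoting complex, 0.965 ± 0.640 and 1.62 ± 1.02 CPM. Fbxo25, the closest relative of Fbxo32, was at 14.9 ± 1.60 CPM in control, 17.6 ± 5.21 in atrophy, 17.5 ± 2.90 in recovery and 16.9 ± 4.51 in repeated atrophy. Fbxo32 itself was 1.61 ± 0.67 higher in atrophy (adjusted p = 0.089). Fbxo30 rose by 1.70 ± 0.29 in atrophy (adjusted p = 0.0051) and 1.85 ± 0.29 in repeated atrophy (adjusted p = 2.0e-04), a larger difference than that of any member there, and both rises of Fbxo30 held after rescaling (1.33 and 1.48), the first not with the block (adjusted p = 0.15).

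The sugar-binding F-box genes lie in clusters. In rn7, Fbxo6 (chr5:158576879-158580291), Fbxo44 (chr5:158583876-158592347) and Fbxo2 (chr5:158592926-158598356) follow each other, with the divergent starts of Fbxo44 and Fbxo2 separated by 579 bases, and Fbxo27 and Fbxo17 are 21261 bases apart on chromosome 1. The neighbours were at different levels. Fbxo2, best known from neurons, averaged 0.0537 ± 0.108 CPM in control and was at 0 in 5 of 9 control limbs and in all 3 recovery limbs. Fbxo44 averaged 3.59 ± 1.22 CPM, and its difference after recovery was -0.33 ± 0.26 (adjusted p = 0.46), beside -1.13 for Fbxo6. Fbxo27 was at 5.46 ± 1.78 CPM and Fbxo17 at 0.751 ± 0.422 CPM in control, and neither passed in any of the 3 comparisons with control.

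The other genes of the ligase system are set beside the background of rows called higher, 20.3% in atrophy and 28.1% in repeated atrophy, and of rows called lower, 2.33% and 6.24%. After rescaling the background was 4.48% higher and 5.21% lower in atrophy, 6.21% and 5.9% in recovery, and 13% and 12.1% in repeated atrophy. No atrophy call of these lists held with the block, where 0% of rows passed. Of the 23 measured genes of the SCF core and neddylation list, 8 rose after atrophy, 0 changed after recovery, and 11 rose and 2 fell after repeated atrophy, with median log2 differences of 0.45, 0.05 and 0.51, against 0.22, 0.02 and 0.20 over all rows. After rescaling the counts were 1 higher and 1 lower in atrophy, 1 higher and 1 lower in recovery, and 4 higher and 2 lower in repeated atrophy. The genes named from these lists were chosen after their values were seen. Cand1, the exchange factor for F-box proteins, rose from 16.6 ± 2.94 CPM to 42.9 ± 8.38 CPM after repeated atrophy, a log2 difference of 1.32 ± 0.23 (adjusted p = 4.6e-04, rescaled 0.95 with adjusted p = 5.7e-04, block adjusted p = 0.0087). Nedd8 rose by 0.80 ± 0.17 (adjusted p = 0.0016) and Cdc34, an E2 of SCF ligases, by 0.85 ± 0.17 (adjusted p = 0.0012), and both held after rescaling and with the block. The falls were Dcun1d2 (-0.57 ± 0.16) and Dcun1d3 (-0.80 ± 0.21), which encode co-factors of cullin neddylation, and both held after rescaling but not with the block.

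Of the 10 COP9 signalosome genes, 3 rose after atrophy and 6 after repeated atrophy, with median log2 differences of 0.44 and 0.44, and after rescaling 0 passed in either. After recovery Cops7a fell by 0.47 on the log2 scale (adjusted p = 0.025, rescaled adjusted p = 0.014, block adjusted p = 0.25), and after rescaling 3 of the 10 were lower. Of 7 F-box genes with other symbols, 2 rose after atrophy (Btrc and Skp2) and 4 after repeated atrophy (Btrc, Ccnf, Fbh1 and Skp2), with medians of 0.38 and 0.56, and after rescaling 0 and 1 passed. Of 16 genes whose proteins are known substrates of F-box proteins, 8 rose and 1 fell after each silencing, with medians of 0.68 and 0.53. Ccne1, Jun, Mtor and Myc, among the rises of both silencings, encode known substrates of FBXW7, which was not analysed here. After rescaling these counts were 2 higher and 2 lower in atrophy, 1 higher and 2 lower in recovery, and 7 higher and 4 lower in repeated atrophy. After recovery Ccnd1, the cyclin D1 gene, rose (1.53 ± 0.41, adjusted p = 0.031) while Tcap, a Z-disc protein gene, fell (-1.03 ± 0.24, adjusted p = 0.016). Both held after rescaling but not with the block, where the differences were 0.73 (adjusted p = 0.26) and -0.70 (adjusted p = 0.23).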

How the data were processed

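Messenger RNA from the tibialis anterior of 24 limbs of 12 rats was sequenced as directional paired-end libraries. The authors filtered contaminants with Bowtie2 2.2.5, aligned to rn7 with STAR and normalised in Partek, and their methods name DESeq2 median of ratios. The counting step and annotation are not given in the sources used here. Each deposited column totals 1000000, so the deposited values were treated as CPM. About 89.2 to 90.8% of low values were whole multiples of a step within 0.1 step, so a count test was not run. After 28 exact duplicate rows were dropped, 14243 rows remained. For a gene with several rows the row with the highest mean was used. Of 27 value columns, 3 match no sample and were not used.

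The scale of the fit was log2(CPM + 1). It used limma 3.58.1 in R 4.3.3, an intensity trend and rows above 0 in at least 3 fitted limbs, with Benjamini-Hochberg adjustment over all rows. Fold changes are on that scale, which understates low genes. One fit held the 18 limbs of the TTX animals, and sham left limbs were compared with the 9 control limbs in another. The block took the animal as a fixed effect, since both limbs come from 1 animal. The correlation of the 2 limbs' deviations from their stage means ran from -0.178 to 0.568 over 9 animals, and 4 of 9 left limbs correlated best with their own right limb, while in the 3 sham animals it ran from 0.597 to 0.817 and 3 of 3 did. On simulated data the fit was checked for known changes. Genes named in each comparison with control were called members with a mean of at least 2 CPM in at least 1 group (at most 12 rises and 12 falls), and members with a known role. One member is counted with the others but not reported here by name or drawn. The members and lists were chosen with earlier results of these data known. Alternatives were other pseudocounts (0.1 and 10), filters, a trimmed mean rescaling, no trend, 12 right limbs as control, only the groups compared, summed rows and leaving out each animal. Promoters came from RefSeq on GRCr8, and rn7 coordinates are those of the file. Replicates of a stage are separate animals. The p-values of the main fit rest on a spread pooled over the 18 limbs, and that fit ignores that left and right limbs share an animal.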

Additional observations from a re-analysis of the deposited data

Results flagged for a closer look

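Of the 26 named members, each checked for a limb apart from the others in the 9 control limbs, 2 had such a limb on the log2(CPM + 1) scale, where chance gives about 1 in 20. On CPM without the log, a scale tried after the data were seen, the number was 5, with Fbxo31, Fbxo33 and Fbxw2 added. For Fbxo2 it was the right limb of atrophy animal 1, at 0.334 CPM with the gap to the next limb 0.769 of the whole log2 range, and for Fbxo38 the right limb of atrophy animal 3, at 43.4 CPM with a gap of 0.635 of the log2 range. In that same limb Fbxo31 was at 509 CPM.

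Left minus right differences had opposite signs in all animals of 2 stages for 2 members among 78 checks; these differences between stages were not tested. Fbxo6 was higher on the left in 3 of 3 atrophy animals (mean 0.12 on the log2 scale) and lower in 3 of 3 recovery animals (-0.69), a gap of 0.808. Fbxo9 was lower on the left in 3 of 3 atrophy animals (-0.24) and higher in 3 of 3 recovery animals (0.20), a gap of -0.435.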

How the results depend on the processing

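The number of called members, 9 in atrophy, 3 in recovery and 13 in repeated atrophy against control, moved with some settings. Rescaling gave 3 in atrophy and 5 in recovery, and 5 between recovery and atrophy. The replicate block gave 0 in atrophy, 1 in recovery, 0 between recovery and atrophy and 0 between repeated atrophy and recovery; with rescaling added it gave 0, 1, 0 and 0, and 3 in repeated atrophy against control. The block without rescaling changed no other count by over 1.5 times. With 12 right limbs as control, atrophy gave 5, and fitting only the 2 groups compared gave 5 between recovery and atrophy. Leaving out 1 animal gave 0 to 16 members in atrophy, 3 to 4 in recovery, 7 to 16 in repeated atrophy, 3 to 15 between recovery and atrophy, 6 to 13 between repeated atrophy and recovery, and 0 to 1 for sham left limbs. The shares of all rows at these settings, in the same order, ran from 0.00715 to 34.6%, 1.32 to 10.6%, 18.4 to 37.6%, 2.84 to 26.5%, 13.2 to 30.4% and 0 to 0.856%. Repeated atrophy against atrophy stayed at 0. Of the 41 calls of named members, 861 refits gave 686 in the same direction and still called, 173 no longer called and 2 of opposite sign, both with the block and rescaling together: Fbxw2 in atrophy (-0.077) and between repeated atrophy and recovery (-0.047). The cause was not tested. Each stage had 3 animals, and members below 1 CPM rest on few reads.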
